A study of Mus musculus with 24 samples.

Results

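Myc and the nucleolar genes of ribosome biogenesis were followed in organoids of the mouse small intestine that lacked Cdk8, Cdk19 or both, or that were exposed to Senexin B, an inhibitor of both kinases. The set holds 39 of the 54146 genes in the count tables. It was given as a list of names, Myc and 38 genes whose products work in the nucleolus, and all 39 symbols were matched to Ensembl identifiers. By role, the 38 genes were the nucleolar scaffold and histone chaperones Ncl and Npm1, 3 subunits of RNA polymerase I, 3 proteins of box C/D and 4 of box H/ACA small nucleolar ribonucleoproteins (snoRNPs), 9 small subunit and 14 large subunit assembly factors, and 3 other nucleolar factors.

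Myc is a transcription factor that binds E-box sequences with its partner Max and raises the expression of growth genes, among them those for making ribosomes. Ribosomes are assembled in the nucleolus, where RNA polymerase I transcribes the precursor of the ribosomal RNAs, snoRNPs guide its methylation and pseudouridylation, and many assembly factors cleave, fold and export the pre-ribosomal particles. In the intestinal crypt Myc is a known target of Wnt signalling and is expressed in dividing progenitors. Cdk8 and Cdk19 are paralogous kinases of the Mediator complex, which connects transcription factors with RNA polymerase II.

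The genotype experiment had 4 groups of 3 libraries. Organoids were WT, lacked Cdk8 (Cdk8-/-) or Cdk19 (Cdk19-/-), or lacked both (Cdk8-/-/Cdk19-/-, called double knockout), all given 600 nM 4-hydroxytamoxifen for 7 days. In this model the CreERT2 recombinase is driven by the Villin promoter and removes exon 2 of floxed Cdk8 in the epithelium, whereas Cdk19 was mutated by lentiviral Cas9 and a guide, after which single organoids were picked, so that a Cdk19 line may descend from 1 clone. The labels call the controls WT, and the methods name floxed Cdk8 mice with and without the recombinase. The other experiment exposed WT organoids to the vehicle DMSO or to Senexin B, with 16 h and 24 h as the times, again with 3 libraries a group. The extraction text, the same for all libraries, also names 4-hydroxytamoxifen and biological triplicates, so p-values measure the spread between these libraries only. Gene counts, taken from the column for 1 strand, summed to 14636861 to 15473180 per library in the genotype experiment and to 27075937 to 28405118 in the Senexin B experiment, and levels are given as CPM, the counts scaled to a common library total, after TMM normalisation, separately for each experiment.

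The genotype libraries are also labelled with the cell type 4T1, a mammary tumour line, but the level of the intestinal genes Vil1 (mean of 946 CPM in WT) and Cdx2 (294 CPM) went with the label intestinal organoids. Of 12 markers of blood, stromal and endothelial cells, summed levels stayed between 0.720 and 6.39 CPM in all 24 libraries. Cdk8 counts of the Cdk8-/- libraries (45.8, 57.3 and 42.4 CPM) overlapped those of WT (42.5, 43.2 and 35.8 CPM), and they sum all exons, so they do not check the deletion of 1 exon. Cdk19 stood at 47.6, 50.1 and 48.6 CPM in WT, 48.8, 28.1 and 28.3 in the libraries labelled Cdk19-/- and 26.96, 23.8 and 51.7 in those labelled double knockout, so that Cdk19-/- replicate 1 and double knockout replicate 3 were at the WT level. Cdk8-/- replicate 3 also stood apart in the genes described here, and values without these 3 libraries are given beside results that they moved past a threshold.

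The E-box CACGTG, which reads the same on both strands, was searched in RefSeq promoter windows of 250 bases before to 50 after each start (GRCm38.p6). Windows were found for 33 members, and those of 7 (21.2%) held it, against 8.09% of the 27025 genes in the promoter table. Myc, Rrs1, Rrp12, Npm1, Bop1 and Fbl had no entry. These 7 are shown because the letters are those Myc and Max bind, 30 bases each in the direction of the gene with the E-box in capitals.

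Pes1, 2 bases after the start, chr11:3963965-3963994, plus strand: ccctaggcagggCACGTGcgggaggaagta
Wdr43, 17 bases after the start, chr17:71616220-71616249, plus strand: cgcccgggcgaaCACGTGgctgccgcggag
Mybbp1a, 40 bases after the start, chr11:72441347-72441376, plus strand: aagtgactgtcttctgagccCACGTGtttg
Nop2, 60 bases before the start, chr6:125131811-125131840, plus strand: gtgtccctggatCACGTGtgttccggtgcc
Grwd1, 34 bases after the start, chr7:45830740-45830769, minus strand: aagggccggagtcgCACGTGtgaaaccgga
Tsr1, 24 bases after the start, chr11:74898092-74898121, plus strand: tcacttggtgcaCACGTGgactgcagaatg
Utp20, 37 bases after the start, chr10:88826765-88826794, minus strand: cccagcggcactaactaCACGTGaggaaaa

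In 6 of the 7 the letters lay within 40 bases after the start and in Nop2 they lay before it. The 250 bases before the start of Nop2, on chr6:125131633-125131882 (plus strand), are given in full as the one member whose E-box lay there.

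Nop2: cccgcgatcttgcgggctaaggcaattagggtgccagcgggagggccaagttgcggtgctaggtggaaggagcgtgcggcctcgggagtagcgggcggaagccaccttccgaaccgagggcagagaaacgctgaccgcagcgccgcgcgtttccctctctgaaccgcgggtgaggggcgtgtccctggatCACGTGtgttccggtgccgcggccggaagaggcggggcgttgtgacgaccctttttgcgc

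Such a match is a description of these letters and no measure of binding. The changes of the 7 genes are given with the others below, where Pes1 and Wdr43 were lower in double knockout organoids than in WT and Cdk19-/- and Mybbp1a than in Cdk19-/-, Pes1, Nop2, Grwd1 and Mybbp1a were higher with Senexin B at 24 h, and Utp20 and Tsr1 passed the test in none of the comparisons.

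All 39 members were expressed in WT organoids, and Myc was among the highest of them per kilobase of exon. Per kilobase of exon, Ncl (96.7 ± 4.36 RPKM, SD, n = 3), which binds pre-ribosomal RNA, and Myc (94.9 ± 2.39 RPKM) did not differ beyond their spread. Npm1, the abundant nucleolar chaperone, followed with 81.4 ± 5.06 RPKM and Nhp2, a core protein of box H/ACA snoRNPs, with 72.1 ± 2.55 RPKM. At the low end stood Wdr12 (2.10 ± 0.206 RPKM), Wdr74 (1.61 ± 0.264 RPKM) and Fbl, the methyltransferase of box C/D snoRNPs (1.28 ± 0.207 RPKM). The length used holds each exon base of any annotated transcript, 10188 for Ncl, 11955 for Wdr12 and 2717 for Myc. This order therefore depends on the annotation as well as on the counts, and in CPM Ncl was above Myc in every WT library. The low values of Fbl and Wdr74 and the value of Npm1 are uncertain. The genotype libraries hold no strand information and the other members had between 44.0 and 53.9% of their stranded reads in the column used, whereas Fbl had 19.4%, Npm1 29.6% and Wdr74 94.2%. Fbl had 53 to 91 reads per genotype library against 3902 to 5705 in the stranded Senexin B libraries. Wdr74, a factor of the large subunit, had 25 to 63 reads in the genotype libraries and was listed at 0 in all Senexin B libraries, where it was therefore not tested. Of the others, the exons of Tsr1 (32.3% of bases, with Srr), Noc2l (20.9%, with Samd11) and Bysl (9.37%, with Ccnd3) overlap a gene on the opposite strand, whose reads cannot be told apart in the genotype libraries. In 13 further members such an overlap covered 0.122 to 4.56% of exon bases, the most in Pes1 (with 4930556J24Rik) and then in Nhp2 (3.84%, with Rmnd5b).

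The level of Myc in single libraries sets the scale of the results. It stood at 251, 258 and 264 CPM in the WT, 298, 261 and 201 in the Cdk8-/-, 287, 258 and 279 in the Cdk19-/- and 150.4, 183 and 167 in the double knockout libraries. The 3 double knockout libraries were the lowest of the 12, below Cdk8-/- replicate 3 at 201 CPM, and the other groups overlapped each other. Myc fell by 35.3% in double knockout organoids relative to WT (log2 fold change -0.63 ± 0.13, SE; edgeR adjusted p = 0.00637), and its change in Cdk8-/- was -0.027 (95% interval -0.30 to 0.25) and in Cdk19-/- 0.091 (-0.18 to 0.36), neither past the test. In the Senexin B experiment Myc was at 201, 204 and 202 CPM with DMSO and 235, 281 and 266 with Senexin B at 16 h, and at 186, 216 and 220.5 and 255, 269 and 287 CPM at 24 h. The groups did not overlap at either time and all Senexin B libraries were higher. The fitted rise was 28.9% at 16 h (log2 0.37 ± 0.08, adjusted p = 0.0117) and 30.3% at 24 h (0.38 ± 0.08, adjusted p = 0.00333), so that Myc passed the test in opposite directions with loss of both genes and with the inhibitor. At 16 h the call was lost without Senexin B 16 h replicate 2 (adjusted p = 0.0571) and without replicate 3 (0.0531).

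**Figure D1:**
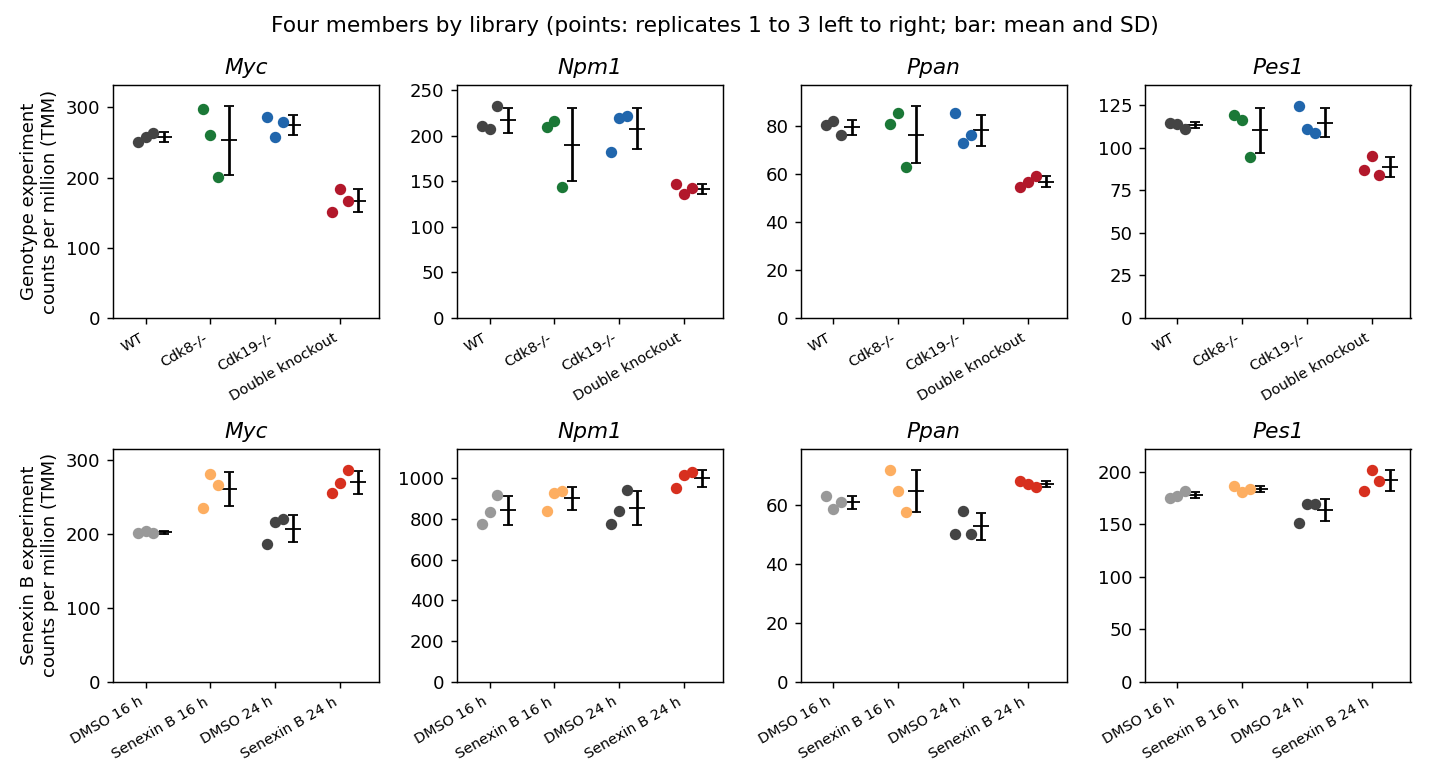
Levels of Myc, Npm1, Ppan and Pes1 in CPM (vertical axes, from 0) by group, with the genotype experiment on top and the Senexin B experiment below. Points are the 3 libraries of a group and bars the mean with its SD. In all 4 genes the double knockout libraries sit below every WT library, for Myc between 150.4 and 183 against 251 to 264 CPM.

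Loss of both kinase genes went with lower levels of Myc, the nucleolar scaffold proteins and single members of most other roles. Relative to WT, 9 of 39 members passed the test in double knockout organoids, all lower and 0 higher, against 7.9% of all 15602 genes tested that were called lower and 17.3% called in any direction. Over all members the median log2 fold change was -0.28 (range -0.75 to 0.13), where the median of all genes was -0.01, and 36 of 39 were below 0, against 51.1% of all genes. In 25 members every double knockout library was below every WT library, against 20.1% of all genes. The summed level of the 39 members was 4279, 4272 and 4316 CPM in the WT libraries and 3364, 3588 and 3119.7 CPM in the double knockout libraries, so the groups did not overlap.

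Both scaffold proteins of the nucleolus were lower. Npm1 had 211, 208 and 232 CPM in WT and 147, 136 and 143 in double knockout libraries (log2 -0.62 ± 0.14, adjusted p = 0.0109). Ncl had 985, 941 and 1029.7 CPM in WT and 673, 719.7 and 695 in double knockout (log2 -0.50 ± 0.15, adjusted p = 0.0354). In both genes all double knockout libraries were below all WT libraries, but the call of Ncl was lost whichever of the 6 libraries was left out (adjusted p up to 0.099). Of the subunits of RNA polymerase I, Polr1c, which is shared with RNA polymerase III, fell from 45.2, 48.2 and 43.5 to 31.9, 30.6 and 30.5 CPM (-0.56 ± 0.11, adjusted p = 0.00478). The catalytic subunits did not pass the test, with log2 values of -0.25 for Polr1a (adjusted p = 0.194) and -0.36 for Polr1b (adjusted p = 0.0863).

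Among the snoRNP proteins 1 of 7 was called lower, against 7.9% of all genes, and all 7 had fitted values below 0 (51.1% of all genes). Nop58, a core protein of box C/D snoRNPs, stood at 159, 155 and 159 CPM in WT and 111, 119 and 117 in double knockout (-0.45 ± 0.12, adjusted p = 0.0296). Its partner Nop56 had a value of -0.23 (adjusted p = 0.189), and Dkc1, the pseudouridine synthase of box H/ACA snoRNPs, -0.45 (adjusted p = 0.0735). The libraries of Dkc1 were at 79.4, 80.9 and 79.8 CPM in WT and 61.2, 60.4 and 54.1 in double knockout and did not overlap. Nolc1, an assembly chaperone of these particles, overlapped between the groups (-0.14).

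Of the 9 small subunit assembly factors 1 was called lower, against 7.9% of all genes, with a median log2 fold change of -0.12, and of the 14 large subunit assembly factors 2 were called lower, with a median of -0.31. The difference between these roles was not tested. Wdr43, a part of the UTP-A complex that binds early pre-ribosomal RNA, fell from 109.9, 112 and 108 to 76.4, 84.1 and 81.1 CPM (-0.45 ± 0.094, adjusted p = 0.00803). The lowest fold changes of the other small subunit factors were those of Ddx10, a helicase, at -0.28, and Rrp9, a protein of the U3 snoRNP, at -0.20, while Utp20 (0.023) and Bysl (0.029) lay at 0 within their errors. Ppan, a large subunit factor, had 80.6, 82.1 and 76.1 CPM in WT and 54.5, 56.7 and 59.3 in double knockout (-0.49 ± 0.11, adjusted p = 0.0112). Pes1, of the PeBoW complex that processes the large subunit RNA, had 114, 114 and 111 and 86.6, 94.96 and 83.6 CPM (-0.35 ± 0.097, adjusted p = 0.0269). The groups of both genes did not overlap. The partners of Pes1 in PeBoW did not pass the test, with Bop1 at 67.98, 67.6 and 59.6 CPM in WT and 79.9, 79.1 and 54.00 in double knockout (0.13, adjusted p = 0.649) and Wdr12 at -0.27 (adjusted p = 0.239). Wdr74 had the lowest fitted value of all members (-0.75 ± 0.29) at 25 to 63 reads per library and did not pass (adjusted p = 0.0982). Of the 3 other nucleolar factors, Gnl3 (nucleostemin), a GTPase of stem and progenitor cells, fell from 85.4, 81.6 and 84.6 to 62.1, 59.6 and 53.9 CPM (-0.52 ± 0.14, adjusted p = 0.0266), whereas the helicase Ddx21 (-0.14) and the Myb-binding protein Mybbp1a (-0.27) did not pass. Myc, Npm1, Polr1c, Wdr43 and Ppan were called whichever of the 6 libraries was left out, and Ncl, Nop58, Pes1 and Gnl3 were not. The count was 5 when any of the WT libraries or double knockout replicate 3 was left out, against 4.01, 4.03 and 5.04% of all genes called lower without WT replicates 1, 2 and 3 and 7.04% without double knockout replicate 3. Without both libraries that had Cdk19 at the WT level (Cdk19-/- replicate 1 and double knockout replicate 3) 7 were called, against 8.69% of all genes called lower in that fit, and Pes1 (-0.32, adjusted p = 0.0514) and Gnl3 (-0.46, adjusted p = 0.0622) were not. In a fit of the 6 WT and double knockout libraries alone, 14 members were called lower, against 8.25% of all genes.

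**Figure D2:**
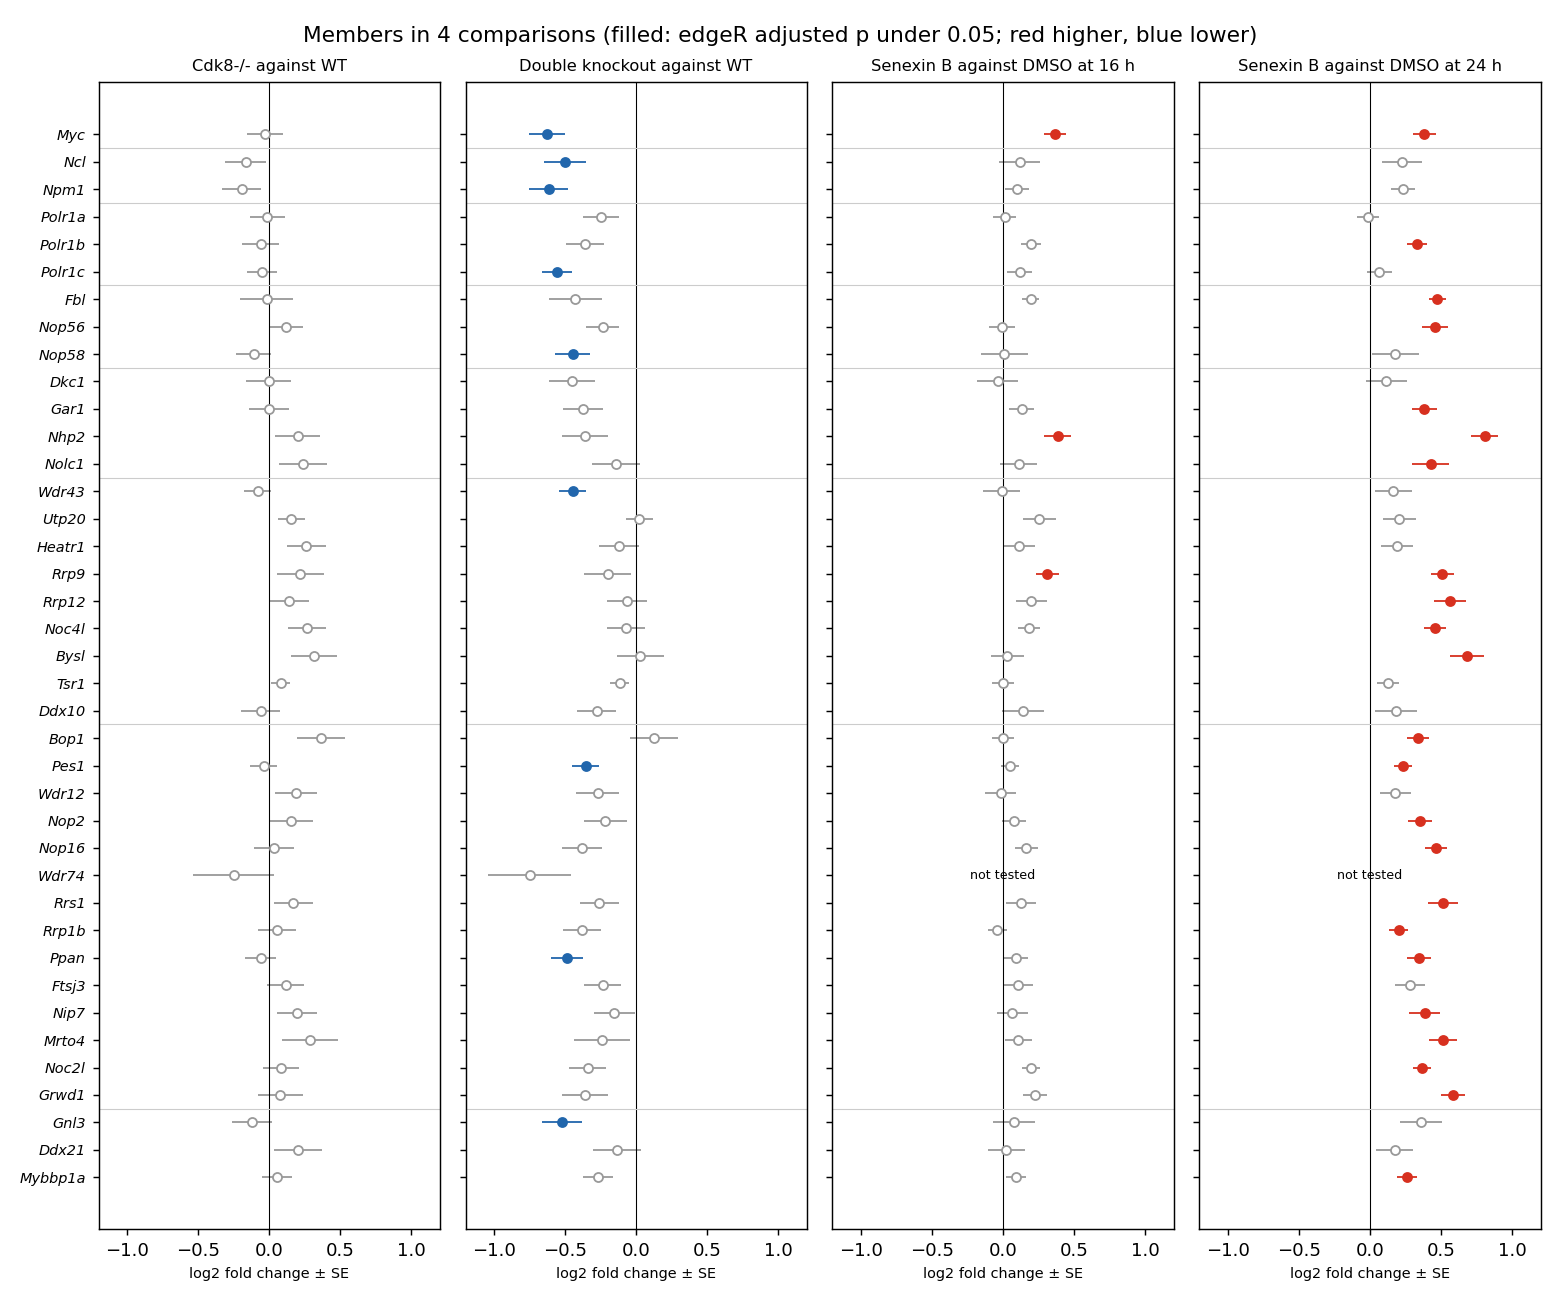
Fitted log2 fold change of each member (horizontal axes, with the SE as a line) in 4 comparisons, members ordered by role with grey lines between roles. Filled points passed the edgeR test, blue for lower and red for higher. With double knockout 9 points are blue and none red, and with Senexin B at 24 h 23 are red and none blue.

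Neither single loss changed a member past the test. In Cdk8-/- organoids 0 of 39 members were called by edgeR, against 5.15% of all genes, with 0 at an unadjusted p under 0.05 (21.4% of all genes) and 0 by DESeq2 (7.84% of all genes). The median was 0.079 with all libraries, 0.0015 without Cdk8-/- replicate 1, -0.0044 without replicate 2, 0.19 without replicate 3 and 0.028 without WT replicate 3, so its sign turned on single libraries. The members ranged from -0.25 to 0.36, with Bop1 highest (94.6, 90.9 and 65.4 CPM, against 67.98, 67.6 and 59.6 in WT). In Cdk19-/- organoids 0 of 39 were called, against 0% of all genes, with 4 at an unadjusted p under 0.05, against 10.8% of all genes (Polr1a, Polr1c, Nolc1 and Rrp12, all above 0) and 0 by DESeq2 (2.01% of all genes). The median there was 0.0030, and between -0.020 (without WT replicate 3) and 0.059 (without Cdk19-/- replicate 3) when 1 library was left out. Without both libraries that had Cdk19 at the WT level 0 members were called, against 4.21% of all genes in that fit. Nolc1 differed within the group, at 168, 233 and 229 CPM against 157, 161 and 166 in WT.

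The summed level of the members was 4552, 4928 and 3492 CPM in the Cdk8-/- libraries, with replicate 3 the only one below WT. In this library Myc was at 201 CPM against 298 and 261 in replicates 1 and 2, and Npm1 at 144 CPM against 209 and 217. Its summed level of 19 proliferation markers was 2224 CPM, against 3034 and 3173 in the other Cdk8-/- libraries. Its part in the results below was measured by leaving it out. In the comparison of double knockout with Cdk8-/- organoids all 39 members had fitted values below 0 (51.1% of all genes), with a median of -0.37, and 0 were called by edgeR, against 0.0256% of all genes. Of the members, 31 had an unadjusted p under 0.05, against 15.5% of all genes, and DESeq2 called 5, against 2.99% of all genes. Without Cdk8-/- replicate 3, edgeR called 21 members, all lower, against 3.22% of all genes called lower in that fit, among them Myc (-0.73, adjusted p = 0.00802), Polr1c (-0.61, adjusted p = 0.00991) and Nhp2 (-0.72, adjusted p = 0.0195). This library was singled out for its low levels of these same members, so leaving it out widens the difference and the calls are no separate support. Leaving out any other library of either group called 0 members, against 0.0188 to 0.0441% of all genes called.

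Relative to Cdk19-/- organoids, which share the lentiviral step, 13 of 39 members were lower in the double knockout and 0 higher, against 11% of all genes called lower and 25.3% called in any direction. The same double knockout libraries enter this comparison and that with WT, so the 2 are not independent. Myc fell by 39.2% (-0.72 ± 0.13, adjusted p = 0.00183) and Polr1c fell by 42.8% (-0.81 ± 0.11, adjusted p = 0.000376). Polr1a, the largest catalytic subunit of RNA polymerase I, stood at 121, 107 and 102 CPM in Cdk19-/- and 71.5, 89.8 and 67.6 in double knockout libraries (-0.53 ± 0.13, adjusted p = 0.01). The groups did not overlap in Polr1a. Nop56, Nolc1, Rrp12, Rrp1b and Mybbp1a were also called, with values of -0.35, -0.52, -0.45, -0.46 and -0.37, and so were Npm1, Pes1, Ppan and Wdr43 (-0.55, -0.37, -0.46 and -0.36). The largest fitted value was that of Wdr74 (-0.98, adjusted p = 0.027), at 25 to 63 reads per library. The calls of Myc, Npm1, Pes1, Polr1a, Polr1c and Ppan held whichever library was left out, and those of the other members did not. The number called was 7 without Cdk19-/- replicate 2, against 6.5% of all genes called lower in that fit, and 8 without double knockout replicate 3, against 10.6%. Without both libraries that had Cdk19 at the WT level it was 10, against 13.4%, and the calls of Polr1a (-0.39, adjusted p = 0.0577), Pes1 (-0.29, adjusted p = 0.0734), Nop56, Rrp12, Rrp1b and Mybbp1a were lost, while Ncl, Nop58 and Ddx10 were called.

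Whether the double knockout departed from the sum of both single losses was tested directly on the log2 scale. Of the members 0 were called by edgeR, against 0.0256% of all genes, although all 39 had a departure below 0 (50.6% of all genes) with a median of -0.39. An unadjusted p under 0.05 was found for 14 members, against 14.5% of all genes, and DESeq2 called 2, against 3.45% of all genes. The largest departures at these p-values were those of Nolc1 (-0.76 ± 0.24, adjusted p = 0.185), Polr1c (-0.76 ± 0.15, adjusted p = 0.0693) and Myc (-0.69 ± 0.18, adjusted p = 0.119). Without Cdk8-/- replicate 3 there were 8 called members, namely Myc, Polr1c, Nop56, Nolc1, Rrp12, Wdr12, Rrp1b and Ppan, against 0.995% of all genes called lower in that fit. That library was singled out for its low levels of these members, so its omission moves the departure further below 0. Without Cdk19-/- replicate 1 there was 1 called member, against 1.14%, and without both libraries that had Cdk19 at the WT level there was 1 (Polr1c), against 1.8%. Leaving out any other single library called 0 members, against at most 0.447% of all genes called.

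**Figure D3:**
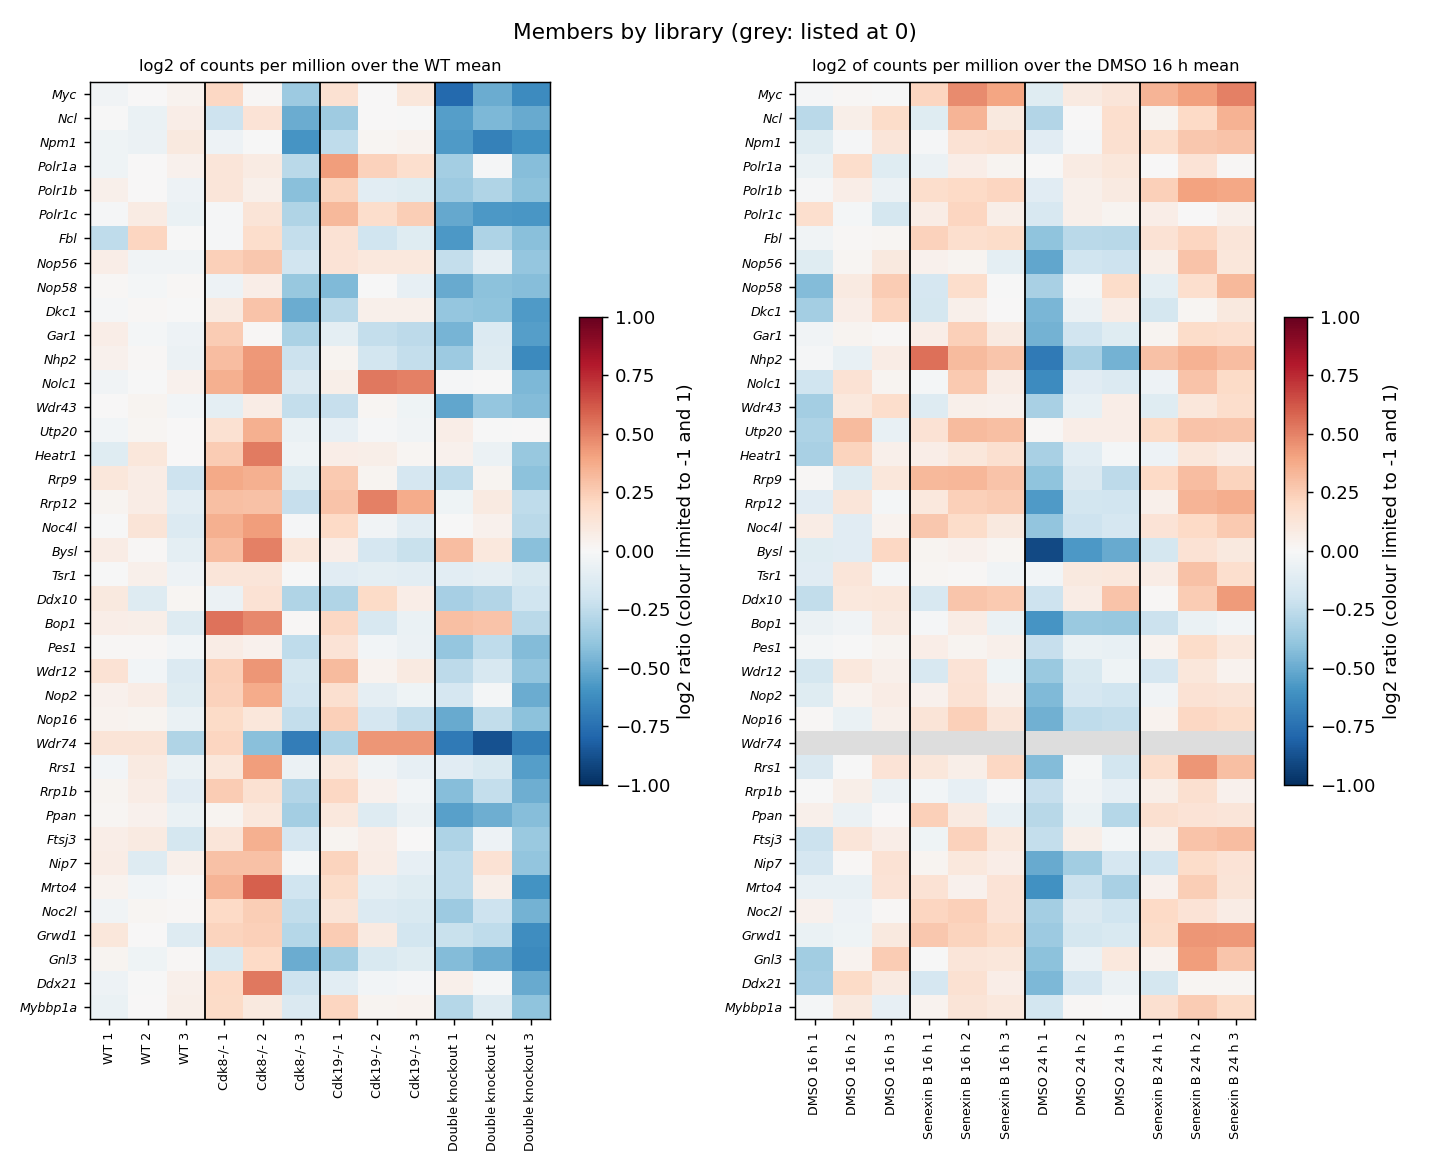
Level of each member in each library as the log2 ratio to the mean of WT (left) or of DMSO at 16 h (right), blue below and red above, with columns for the libraries and rows ordered by role. Most members are blue in the 3 double knockout columns and in Cdk8-/- replicate 3, and in DMSO at 24 h replicate 1; grey marks Wdr74, listed at 0.

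With the inhibitor, all members that passed the test were higher. At 24 h 23 of 38 members tested were higher with Senexin B than with DMSO and 0 lower, against 14.8% of all 15467 genes called higher and 27.5% called in any direction. The median log2 fold change was 0.34 (range -0.014 to 0.81), where that of all genes was 0.00, and 1 of 38, Polr1a, was below 0, against 49.9% of all genes. In 24 members every Senexin B library was above every DMSO library, against 23.5% of all genes. The summed level was 4174, 4874 and 5106 CPM with DMSO and 5371, 5934 and 5949 CPM with Senexin B. In 18 of the 23 the call held whichever library was left out, and in Nolc1, Nip7, Pes1, Rrp1b and Mybbp1a it did not.

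The largest rises were in snoRNP proteins and subunit assembly factors. Nhp2 rose from 48.1, 62.8 and 56.6 to 96.1, 99.9 and 97.3 CPM (0.81 ± 0.095, adjusted p = 7.38e-05) and Fbl from 137, 149 and 149 to 199, 209 and 196 CPM (0.47 ± 0.058, adjusted p = 9.36e-05). Nop56 rose too, from 114, 143 and 142 to 171, 199.8 and 177 CPM (0.46 ± 0.093, adjusted p = 0.0028). In all 3 genes every Senexin B library was above every DMSO library. Of the other snoRNP proteins Gar1 (0.38) and Nolc1 (0.43) were called, and Nop58 (0.18) and Dkc1 (0.12) were not.

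Of the 9 small subunit factors 4 were called higher, against 14.8% of all genes. Bysl (bystin), which acts in late maturation of the small subunit, had 17.3, 21.7 and 22.8 CPM with DMSO and 28.6, 35.8 and 34.7 with Senexin B (0.68 ± 0.12, adjusted p = 0.001). Rrp12, an export factor, had 29.9, 38.99 and 38.7 and 45.9, 56.05 and 56.98 CPM (0.56 ± 0.11, adjusted p = 0.00207). Rrp9 and Noc4l, the partner of Nop14 in small subunit assembly, rose by log2 values of 0.51 and 0.45. Of the 13 large subunit factors tested 11 were called higher, against the same 14.8% of all genes, with a median of 0.35. Grwd1, a chaperone of the ribosomal protein Rpl3, rose from 32.7, 37.2 and 37.8 to 47.9, 57.2 and 56.7 CPM (0.59 ± 0.084, adjusted p = 0.00027). Rrs1, which brings the 5S particle into the large subunit, rose from 30.7, 41.03 and 36.5 to 47.02, 56.3 and 51.1 CPM (0.51 ± 0.11, adjusted p = 0.00289). Mrto4, which holds the place of the stalk protein Rplp0 in the precursor, rose by 0.51, Nop16 by 0.46 and Nip7 by 0.38. The others called were Noc2l, Nop2 (an RNA methyltransferase), Ppan, Bop1, Pes1 and Rrp1b, with values of 0.37, 0.35, 0.35, 0.34, 0.23 and 0.20. Of the remaining roles Polr1b (0.33) and Mybbp1a (0.26) were called, while Polr1a (-0.014) and Polr1c (0.066) were not. Npm1 (0.23, adjusted p = 0.0538) and Ncl (0.22, adjusted p = 0.258) missed the threshold. Deviations of libraries with the same replicate number had correlations of 0.377, 0.137 and 0.187 at 24 h, and those with different numbers reached 0.147. With the number as a block 30 members were called higher, against 19.3% of all genes called higher with that block. The block added Ncl (adjusted p = 0.0243), Npm1 (0.00593), Ddx10 (0.0328), Wdr12 (0.0378), Ftsj3 (0.00112), Gnl3 (0.00272) and Ddx21 (0.0427).

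At 16 h fewer members passed the test. Of 38 members 3 were higher with Senexin B and 0 lower, against 4.36% of all genes called higher and 7.75% in any direction, with a median of 0.11, which was 0.033 without DMSO 16 h replicate 1. Beside Myc these were Nhp2, from 78.2, 74.8 and 82.9 to 115, 97.8 and 95.2 CPM (0.39 ± 0.094, adjusted p = 0.0218), and Rrp9, from 37.7, 34.1 and 40.4 to 46.8, 47.03 and 45.5 CPM (0.31 ± 0.079, adjusted p = 0.0267). In these 3 genes the groups did not overlap, as in 10 members in all, against 12.2% of all genes. The call of Nhp2 was lost without Senexin B 16 h replicate 1 (adjusted p = 0.101) or DMSO 16 h replicate 2 (0.0818) and that of Rrp9 in 4 of 6 fits that left out a library, and leaving out any of the 3 Senexin B libraries left 1 member called, against 2.95, 2.68 and 2.66% of all genes called higher without replicates 1, 2 and 3. With the replicate number as a block 6 members were called higher, against 7.49% of all genes, adding Fbl (0.19, adjusted p = 0.0332), Polr1b (0.20, 0.0396) and Grwd1 (0.23, 0.0403).

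Whether the effect differed between the times was tested as an interaction. Of the members 0 were called by edgeR, against 0% of all genes. The difference between 24 h and 16 h was below 0 in 3 of 38 members (48% of all genes) with a median of 0.20, and 14 had an unadjusted p under 0.05 (12.9% of all genes), while DESeq2 called 0 (0.487% of all genes). The largest difference was that of Bysl (0.65 ± 0.17, adjusted p = 0.264, and 0.0434 with the replicate block). For Myc the difference was 0.015 (95% interval -0.23 to 0.26).

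The levels with DMSO themselves moved between the times. From 16 h to 24 h 9 of 38 members were lower with DMSO and 0 higher, against 6.59% of all genes called lower and 11.1% in any direction, with a median of -0.19, which was -0.096 without DMSO 24 h replicate 1 and -0.12 without DMSO 16 h replicate 2. Bysl had 29.8, 29.9 and 37.3 CPM at 16 h and 17.3, 21.7 and 22.8 at 24 h (-0.65 ± 0.12, adjusted p = 0.00556). Nhp2 had 78.2, 74.8 and 82.9 and 48.1, 62.8 and 56.6 CPM (-0.49 ± 0.095, adjusted p = 0.0074). Bop1 fell from 66.9, 67.9 and 74.4 to 46.3, 54.04 and 53.7 CPM (-0.44 ± 0.079, adjusted p = 0.00526). In each of these genes all 3 libraries at 24 h were below all 3 at 16 h, as in 16 members in all, against 15.8% of all genes. Mrto4, Nop16, Fbl, Rrp9, Noc4l and Noc2l were also called, with values between -0.37 and -0.23. The calls of Fbl, Nhp2, Bysl and Bop1 held whichever library was left out, and 4 members were called without DMSO 16 h replicate 3 or DMSO 24 h replicate 1, against 1.59 and 1.93% of all genes called lower. Myc did not pass (0.037, 95% interval -0.13 to 0.21).

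With Senexin B, by a comparison chosen after the data were seen, 0 of 38 members differed between the times by edgeR, against 4.46% of all genes, with 1 at an unadjusted p under 0.05 (Tsr1, 0.18; 18.1% of all genes), 0 by DESeq2 (7.23% of all genes) and a median of 0.040, between 0.0019 (without Senexin B 24 h replicate 3) and 0.094 (without replicate 1) when 1 library was left out. Bysl was at 32.9, 33.4 and 32.7 CPM at 16 h and 28.6, 35.8 and 34.7 at 24 h, and Nhp2 at 115, 97.8 and 95.2 and 96.1, 99.9 and 97.3 CPM. In both genes the Senexin B groups overlapped between the times. The comparisons at 24 h and over time share the DMSO libraries of 24 h, so the rise with the inhibitor and the fall with DMSO are not independent of each other. For Bop1 the libraries with Senexin B at 24 h (60.05, 66.5 and 68.3 CPM) overlapped those with DMSO at 16 h (66.9, 67.9 and 74.4 CPM).

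The genotype and Senexin B comparisons share no library. Of the 9 members lower in double knockout organoids 3 (33.3%; Myc, Pes1 and Ppan) were called higher with Senexin B at 24 h, against 26.2% of the 1182 genes called lower in the double knockout and tested in both experiments. They were 13.0% of the 23 members called higher, against 14% of all 2207 such genes. Gnl3, Ncl, Nop58, Npm1, Polr1c and Wdr43 were not called with Senexin B. Of the 38 members tested in both experiments 34 had a fitted value below 0 in the double knockout and above 0 with Senexin B at 24 h, against 28.1% of all genes. Set side by side, Myc had -0.63 in the double knockout and 0.38 with Senexin B at 24 h, Pes1 -0.35 and 0.23, and Ppan -0.49 and 0.35. Both calls of Pes1 were lost in some fits that left out a library (edgeR adjusted p up to 0.0855 and 0.0762). Polr1c fell in the double knockout (-0.56) and had 0.066 with the inhibitor, and Nhp2, the largest rise with the inhibitor (0.81), had -0.36 in the double knockout (adjusted p = 0.144). The experiments were prepared differently, the second by its labels from ribosome-depleted total RNA, and a difference between them was not tested.

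Other genes of the pathway were described by lists written with earlier results of these data known, by their counts and medians. Of the cytosolic ribosomal proteins tested, 51 of 76 were lower in double knockout organoids and 0 higher (median -0.67), against 7.9% of all genes called lower, and 26 of 76 were lower in Cdk8-/- (median -0.37; 2.36% of all genes), in which 0 of 39 members were called (median 0.079). With Senexin B 9 of 78 were higher at 16 h (median 0.17; 4.36% of all genes) and 74 of 78 at 24 h (median 0.43; 14.8% of all genes), with 0 lower. From 16 h to 24 h with DMSO 0 of 78 were called by edgeR (median -0.11; 11.1% of all genes called). Of the 78, 13 had an unadjusted p under 0.05, against 4339 of all 15467 genes tested. All 78 had fitted values below 0 there, as did 31 of 38 members, against 49.9% of all genes. These genes have many processed pseudogenes, and the share of reads that mapped to several places was 22.5 to 22.9% in WT, 19.7 to 22.0% in Cdk8-/- and 19.5 to 20.1% in double knockout libraries, 7.25 to 7.37% with DMSO at 24 h and 7.86 to 8.12% with Senexin B at 24 h. Its part in the result was not tested.

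Of 90 further ribosome biogenesis factors 12 were lower in the double knockout (median -0.18) and 36 higher with Senexin B at 24 h (median 0.21), with 0 in the other direction. Of all genes 7.9% were called lower and 9.41% higher in the double knockout, and 14.8% higher and 12.7% lower with Senexin B at 24 h, for this and the following lists. Among 12 other factors of RNA polymerase I 2 were lower in the double knockout and 3 higher with Senexin B at 24 h (medians -0.20 and 0.11). Among 20 genes of RNA polymerase III 2 were lower and 1 higher in the double knockout, and 4 higher and 1 lower with Senexin B (medians -0.14 and 0.019). Of 8 host genes of snoRNAs 3 were lower in the double knockout (median -0.51) and 4 higher with Senexin B (median 0.22). The partners and antagonists of Myc (12 genes of the Max network) were split, with 4 lower and 2 higher in the double knockout and 3 lower and 2 higher with Senexin B at 24 h. Of 20 Myc target genes outside ribosome biogenesis 3 were lower in the double knockout and 0 higher, against 12 higher and 1 lower with Senexin B at 24 h (medians -0.28 and 0.28). Their summed level overlapped at 24 h, at 5915, 6481 and 6559 CPM with DMSO and 6392, 6962 and 6737 with Senexin B. At 16 h all Senexin B libraries (6816, 7018 and 6925 CPM) were below all DMSO libraries (7245, 7448 and 7906 CPM), while Myc was called higher. From 16 h to 24 h with DMSO 8 of these 20 were lower and 0 higher (median -0.29), against 6.59% of all genes called lower.

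**Figure D4:**
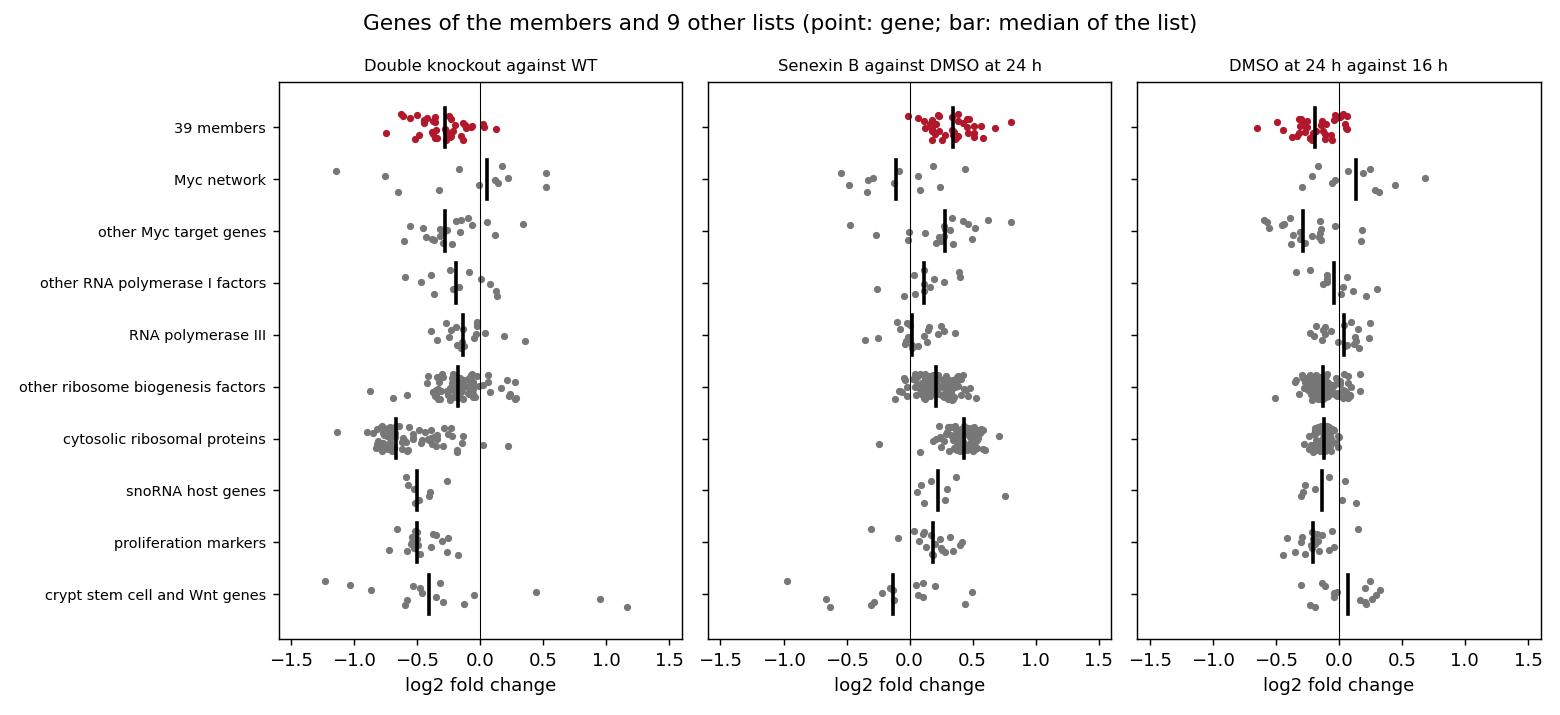
Fitted log2 fold changes (horizontal axes) of the genes of the set (red) and of 9 other lists (grey) in 3 comparisons, 1 point a gene and a black bar at the median of each list. The members sit at a median of -0.28 in the double knockout, 0.34 with Senexin B at 24 h and -0.19 with DMSO over time, and the ribosomal proteins at -0.67, 0.43 and -0.11.

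Markers of cell types moved with the genotype, and fewer cells of a type and less RNA per cell cannot be told apart in these libraries. In the double knockout 13 of 19 proliferation markers were lower and 0 higher (median -0.50), against 7.9% of all genes called lower and 9.41% higher, with summed levels of 2912, 2926 and 3105 CPM in WT and 2219, 2184 and 1885 CPM in double knockout libraries. Of 16 crypt stem cell and Wnt genes 9 were lower (median -0.41), of 14 enterocyte markers 8 were higher (median 0.86), and all 7 Paneth cell markers were higher (median 1.55), with summed levels of 1545, 1724 and 1308 CPM in WT and 2598, 5267 and 4305 CPM in double knockout libraries. The summed enterocyte level was 10517, 10909.6 and 10289.8 CPM in WT and 23249.9, 17162 and 18046 CPM in double knockout libraries. Of the goblet cell markers 2 of 7 were higher, of the enteroendocrine 0 of 8 were called, of the tuft cell markers 2 of 5 were lower, of 8 genes of intestinal identity 3 were higher and 1 lower, and of 3 non-epithelial markers tested 1 was higher. The part of these shifts in the lower levels of Myc and the nucleolar genes was not tested. In Cdk19-/- libraries the crypt stem cell and Wnt genes summed to 5757, 7957 and 7131 CPM, against 5130, 4998 and 4860 in WT. Their summed enterocyte level was 9271, 7113 and 7933 CPM, below WT, so both lists went the other way from the double knockout. The other marker sums overlapped WT. What these sums add to the comparison of double knockout with Cdk19-/- was not tested. In Cdk8-/- organoids, whose members were not called, all 7 Paneth cell markers were higher, as in the double knockout (median 1.62; 2.79% of all genes called higher), and 0 of 19 proliferation markers were called, with 14 of them below 0 (median -0.067). The summed goblet level was 3485, 3354 and 3873 CPM in Cdk8-/-, against 2209, 2340 and 3131 in WT. The summed enterocyte level was 13352, 13175 and 14507 CPM, also above all WT libraries.

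With Senexin B at 24 h 8 of 19 proliferation markers were higher and 0 lower (median 0.19), against 14.8% of all genes called higher and 12.7% lower, 2 of 16 crypt stem cell and Wnt genes were higher and 4 lower, and 5 of 7 Paneth cell markers were lower. Enterocyte markers were called higher in 4 and lower in 3 of 14. Goblet cell markers were called higher in 5 and lower in 1 of 7 (median 0.47), and enteroendocrine markers higher in 5 of 8 (median 0.66). The summed goblet level went the other way, at 3747, 3277 and 3238 CPM with DMSO and 3180, 2999 and 2848 CPM with Senexin B. Of the tuft cell markers 3 of 5 were higher, of 8 genes of intestinal identity 2 were higher and 2 lower, and of 3 non-epithelial markers 0 were called. At 16 h 0 of 19 proliferation markers were called, 11 of them below 0 (median -0.046), while 4 of 7 goblet cell markers (median 0.43) and 4 of 8 enteroendocrine markers (median 0.51) were higher and 2 of 7 Paneth cell markers lower, against 4.36% of all genes called higher and 3.39% lower. The summed goblet level at 16 h overlapped, at 3327, 3342 and 2571 CPM with DMSO and 2971, 3000 and 2677 CPM with Senexin B. Of 16 crypt stem cell and Wnt genes 3 were higher and 1 lower at 16 h, of 14 enterocyte markers 2 and 1, of 8 genes of intestinal identity 1 and 0, and the tuft cell and non-epithelial markers were not called. From 16 h to 24 h with DMSO, when 9 members fell, 4 of 19 proliferation markers were lower (median -0.21; 6.59% of all genes) and 3 of 8 enteroendocrine markers higher (4.52% of all genes). The part of these markers in the members' values with Senexin B and over time was not tested.

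**Figure D5:**
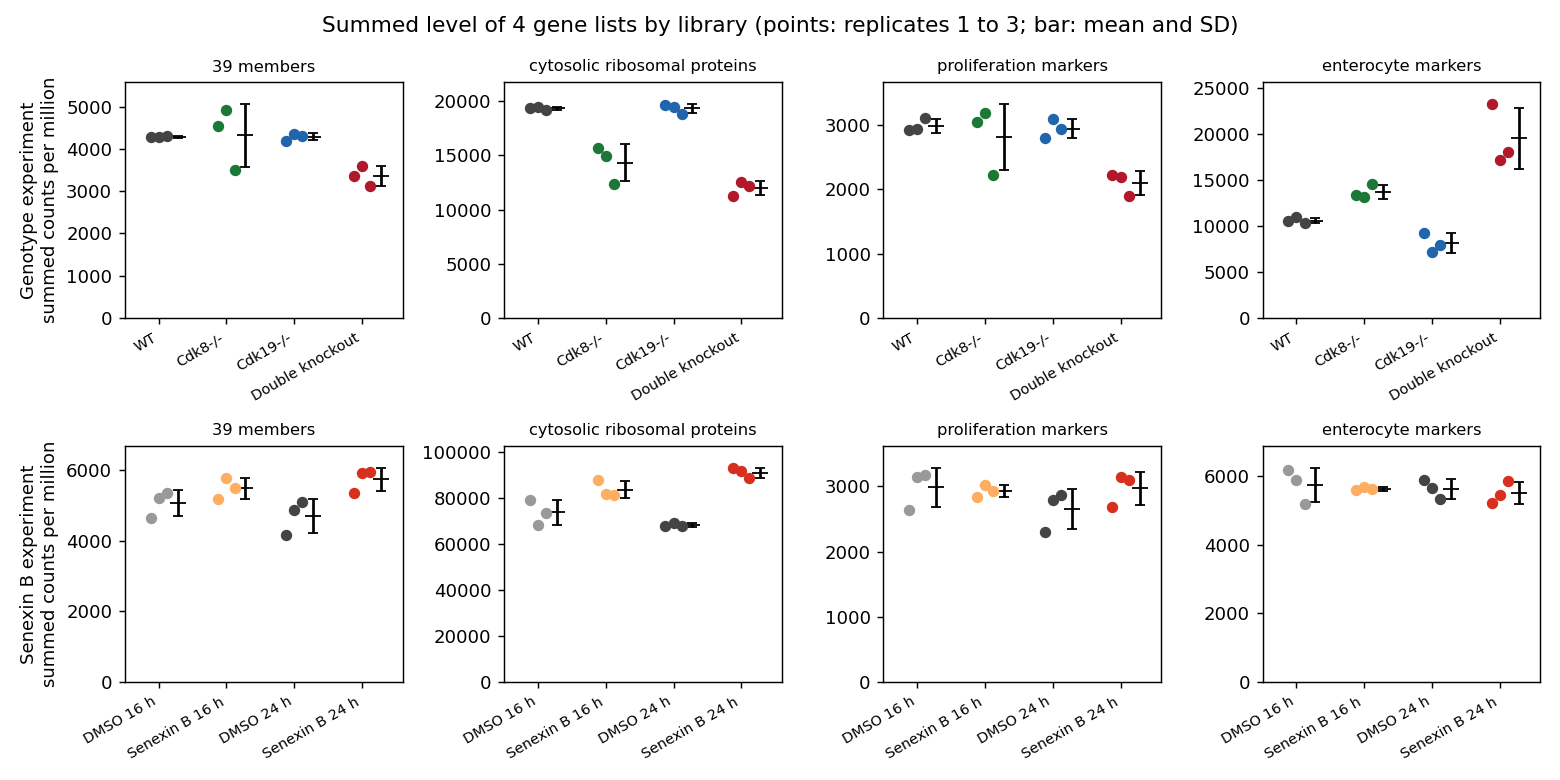
Summed level of 4 gene lists in CPM (vertical axes, from 0) by group, with the genotype experiment on top and the Senexin B experiment below. Points are the 3 libraries of a group and bars the mean with its SD. The members and the proliferation markers are lower in all double knockout libraries than in all WT libraries, the enterocyte markers are higher, and the Cdk8-/- library with the low point in both is replicate 3.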

How the data were processed

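RNA of 24 organoid libraries, 3 in each of 8 groups, was sequenced as single-end reads. The authors aligned the reads to GRCm38.p6 with STAR (2.6.0c in the submitters' processing notes, which also name FastQC) and deposited raw counts per Ensembl gene, without strand and for each strand. The column for the reverse strand was used in all libraries. It held 49.6 to 49.7% of the stranded counts in the genotype libraries, which carry no strand information and so lose about as many reads as they keep, and 87.9 to 90.5% in the Senexin B libraries. Reads not counted on a gene in that column, left out of library sizes, made up 63.1 to 65.2% and 21.5 to 25.1% of the table. The labels were used as given, and groups were taken from them.

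Counts were tested in R 4.3.3 by edgeR 4.0.16 (glmQLFit and glmQLFTest, quasi-likelihood), with TMM normalisation, its filter on low counts and one fit for all 12 libraries of an experiment. P-values were adjusted by the Benjamini-Hochberg method over all genes tested, a gene was called at an adjusted p under 0.05, and all tests were two-sided. Errors of fold changes are SE and those of levels SD. The code was tested on simulated data. The members and gene lists were chosen with earlier results of these data known. Any member could be named, Myc in every comparison, and up to 8 called members per comparison in full, by size of change, with up to 4 others as examples. Pes1 in the double knockout and Nop56 with Senexin B at 24 h were given in full beyond that number, and further members not called were named, after their values were seen.

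Libraries with the same replicate number were compared for shared deviations from their group means. At 16 h the correlations of the 3 pairs of DMSO and Senexin B libraries were 0.303, 0.101 and 0.11, and at 24 h 0.377, 0.137 and 0.187. Libraries with different numbers reached up to 0.154 at 16 h and 0.147 at 24 h, above some of these pairs. The numbers were read as pairs there because each pair passed 0.1. That reading is uncertain, since the labels do not state what the numbers mark. No libraries were duplicates. Alternatives were DESeq2 1.42.0, its size factors in edgeR, the column without strand, a minimum of 10 counts in each library, no filter, a fit of the compared groups alone, the replicate block and each library left out. A fit without both libraries with Cdk19 at the WT level, and the comparison of Senexin B between the times, were chosen after seeing the data. Figures were drawn with matplotlib 3.10.9.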

Additional observations from a re-analysis of the deposited data

How the results depend on the processing

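The number of members called in the double knockout against WT was 5 to 7 when 1 library was left out (4.01 to 7.04% of all genes lower) and 14 with only the groups compared (8.25%). Against Cdk19-/- it was 7 to 14 when 1 library was left out (6.5 to 12.6%). Against Cdk8-/- it was 0 to 21 (0.0188 to 3.22%), with 5 by DESeq2 and 3 with no filter (1.45% and 0.584% of all genes lower). For the departure from the sum of the single losses it was 0 to 8 (0 to 1.14%), with 2 by DESeq2, 3 with no filter (1.18% and 0.601% of all genes lower) and 1 without Cdk19-/- replicate 1 and double knockout replicate 3 together (1.8%). With Senexin B it was 1 to 3 at 16 h (2.66 to 6.3% of all genes higher), with 5 by DESeq2 (5.46% of all genes higher), and 18 to 24 at 24 h (9.64 to 13.2%), and for the difference between the times 1 with no filter (0.426% of all genes called). With DMSO between the times it was 4 to 10 (1.59 to 7.6% of all genes lower), and 3 with only the groups compared (1.45% of all genes lower). The causes of these moves were not tested, other than that each fit without a library holds fewer samples.

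With the replicate block, 6 members were called at 16 h, 30 at 24 h and 1 for the difference between the times, against 7.49% and 19.3% of all genes called higher and 0.388% called in any direction. In the genotype experiment and between the DMSO groups the libraries share only a number, and there the block gave 11 members in the double knockout against WT, 16 against Cdk19-/- and 17 with DMSO between the times, against 7.88%, 11% and 11.7% of all genes called lower. The column without strand gave 11, 15, 4, 25 and 11 members for the double knockout against WT and Cdk19-/-, Senexin B at 16 h and 24 h, and DMSO between the times, against 8.38% and 11.6% of all genes called lower, 4.37% and 15.2% higher, and 7.14% lower.

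Myc values that did not pass the test changed sign in 6 fits that left out a library. In Cdk8-/- Myc lay between -0.16 and 0.098 over these fits, above 0 without Cdk8-/- replicate 3. For the difference between the times it lay between -0.057 and 0.061, below 0 without DMSO 24 h replicate 1, Senexin B 16 h replicate 1 (-0.054) or Senexin B 24 h replicate 3 (-0.029). Between the times with DMSO it lay between -0.0089 and 0.11, below 0 without DMSO 24 h replicate 3, and with Senexin B between -0.016 and 0.10, below 0 without Senexin B 16 h replicate 1. The genotype values of Wdr74 and Fbl rest on 25 to 63 and 53 to 91 reads per library, and why these are few was not tested.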
